A study of Arabidopsis thaliana with 12 samples.

Results

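The mitochondrial genome genes of Arabidopsis thaliana were taken as all loci whose code begins with ATMG in the transcript tables of the 12 libraries, 146 of the 33602 loci listed. Whether a locus belongs to the set was decided by its code alone. Of the 146 loci, 60 had enough counts for the test across genes and 86 did not. Among the 86, 7 loci had no count in any library and for 32 others the counts of all 12 libraries summed to 10 or less.

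RNA was measured by sequencing in whole seedlings harvested after 10 days of growth in long days at 21 °C. The 4 groups were atrx-2 seedlings under low light (30 µmol), wild-type Col-0 seedlings under low light, atrx-2 seedlings under normal light (130 µmol), and wild-type Col-0 seedlings under normal light, with 3 libraries each. ATRX is a chromatin remodelling protein that acts with histone H3.3, and atrx-2 is a mutant allele of its gene in the Col-0 accession. The labels number the replicates but do not state whether each was grown separately, so the spread behind every p-value is that between these libraries and may be technical. Bulk RNA from whole seedlings cannot tell fewer cells of a type from less RNA per cell.

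The plant mitochondrial genome carries ribosomal RNAs, transfer RNAs and genes for some subunits of the respiratory chain, of ATP synthase, of the cytochrome c maturation machinery and of the mitochondrial ribosome. The remaining mitochondrial proteins are encoded in the nucleus, as are the phage-type RNA polymerases that transcribe the mitochondrial genome. Mitochondrial transcripts of plants undergo C-to-U editing, and in Arabidopsis a large piece of mitochondrial DNA sits on chromosome 2, where it holds near-identical copies of these genes.

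The libraries held 13733302 to 23899191 estimated counts. ATRX itself had 6 to 20 counts in the 6 atrx-2 libraries, against 537 to 905 counts in the 6 wild-type libraries. Of the marker genes for green tissue, RBCS1A ranged between 7473 and 10756 TPM (the deposited level, scaled to transcript length and library size), LHCB3 between 2579 and 4041 TPM and LHCA1 between 2373 and 4005 TPM. The root markers PIN2, EXPA7 and COBL9 were present at 5.71 to 12.7, 4.61 to 10.8 and 1.63 to 2.82 TPM. The pollen marker VGD1 reached 0.02 TPM at most, while AGC1-5 had 0.983 to 1.75 TPM and TUA1 had 12.04 to 22.7 TPM. The nuclear 18S ribosomal RNA locus took 9.77%, 15.4% and 12.01% of the counts in the atrx-2 low-light libraries and 10.96%, 11.4% and 16.7% in the wild-type low-light libraries. It took 5.28%, 3.70% and 8.64% in the atrx-2 normal-light libraries and 6.24%, 6.84% and 5.91% in the wild-type normal-light libraries, so the 18S share did not overlap between light levels. Chloroplast genome loci took 4.83% to 8.90% under low light and 2.29% to 3.55% under normal light. Wild-type low-light replicate 3 had the highest share of mitochondrial, 18S and chloroplast counts of all 12 libraries. The wild-type calls that remained without it are given below, with the log2 change for some loci. Sums with nuclear copies were tested with all 12 libraries only.

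A mitochondrial gene and its nuclear copy could share reads, and this bears on the values of every gene that has such a copy. The sequences compared here are those of TAIR10.1, whose mitochondrial sequence is not the TAIR10 one to which the authors assigned reads. In TAIR10.1, 59 nuclear loci were paired with 56 of the 146 mitochondrial loci, 20 by shared sequence windows of 50 bases and 39 by their annotation. Of 31 named mitochondrial loci checked, 13 had every window of 50 bases, the length of the reads, present in a nuclear gene, and 20 had more than 50% of their windows there. Loci without a name were not checked in this way. COB, which encodes cytochrome b of complex III, and ATP9, which encodes the ring subunit of ATP synthase, are shown because their first 60 coding bases are the same in the nuclear copy, written here 5′ to 3′ in TAIR10.1 coordinates.
COB, chrMT:182799-182858, minus strand: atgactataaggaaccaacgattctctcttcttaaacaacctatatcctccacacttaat
AT2G07727, chr2:3450863-3450922, plus strand: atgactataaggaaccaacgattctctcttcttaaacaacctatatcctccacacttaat
ATP9, chrMT:271126-271185, minus strand: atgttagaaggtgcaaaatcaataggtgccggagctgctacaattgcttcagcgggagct
AT2G07671, chr2:3252021-3252080, minus strand: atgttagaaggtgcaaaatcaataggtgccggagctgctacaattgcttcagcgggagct

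In TAIR10.1, CCMC, which has 2 paired copies, differed at 1 coding base from AT2G07681 and at 0 from AT2G07771. NAD7, NAD5A and CCMFN1 each differed from their copy at 1 base of their coding exons, and bases outside the coding exons were not compared. The stretches below, from NAD7 and NAD5A (complex I) and CCMFN1 (cytochrome c maturation), are shown because they hold that base, which is in capitals.
NAD7, chrMT:239347-239407, minus strand: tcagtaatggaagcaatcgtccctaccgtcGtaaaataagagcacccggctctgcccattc
AT2G07709, chr2:3394377-3394437, plus strand: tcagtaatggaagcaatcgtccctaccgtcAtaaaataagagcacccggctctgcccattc
NAD5A, chrMT:236030-236090, plus strand: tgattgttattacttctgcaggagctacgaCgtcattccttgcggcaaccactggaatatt
AT2G07711, chr2:3397696-3397756, minus strand: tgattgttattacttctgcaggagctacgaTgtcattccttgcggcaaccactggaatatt
CCMFN1, chrMT:316036-316096, plus strand: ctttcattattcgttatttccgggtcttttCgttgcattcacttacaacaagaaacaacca
AT2G07783, chr2:3297913-3297973, plus strand: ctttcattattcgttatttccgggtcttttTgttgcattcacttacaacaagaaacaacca

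The division of counts between gene and copy varied widely. COB received 98.2 counts in all 12 libraries together while AT2G07727 received 2996, and ATP9 received 1178 while AT2G07671 received 6522. NAD7 held 10.2% of the summed counts of NAD7 and AT2G07709, and CCMFN1 held 0.74% of its sum with AT2G07783. Which of these counts came from shared sequence was not determined. COX1 and COX2 of complex IV, RRN18, RPS3, RPL16, NAD9, ATP4, NAD5C and CCMB had no paired nuclear copy. Values below are those assigned to the mitochondrial locus unless a sum with the copy is named.

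Mitochondrial loci took 0.365%, 0.487% and 0.383% of all counts in the atrx-2 low-light libraries and 0.346%, 0.349% and 0.539% in the wild-type low-light libraries. They took 0.184%, 0.188% and 0.238% in the atrx-2 normal-light libraries and 0.290%, 0.273% and 0.290% in the wild-type normal-light libraries. Low light was higher than normal light in both genotypes without overlap by counts, while as a share of TPM the light groups overlapped in both genotypes. The TPM share gives much weight to RRN5, a ribosomal RNA locus with an effective length of 6.07 bases. RRN5 averaged 181 TPM under low light and 415 TPM under normal light in atrx-2, and 210 and 379 TPM in wild type. The TPM share without RRN5 was not tested. By counts the genotypes overlapped under low light but not under normal light. The means were 0.412% ± 0.0661 in atrx-2 under low light, 0.411% ± 0.111 in wild type under low light, 0.203% ± 0.0302 in atrx-2 under normal light and 0.285% ± 0.0101 in wild type under normal light (SD, n = 3 each). These means give log2 ratios of low over normal light of 1.02 in atrx-2 and 0.53 in wild type, and of atrx-2 over wild type of 0.00 under low light and -0.48 under normal light. Without wild-type low-light replicate 3 the light ratio in wild type was 0.29. The 95% exact binomial interval of the lowest library share was 0.182% to 0.186% and that of the highest was 0.536% to 0.543%, and such intervals cover counting error only.

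Most of these counts lay in 2 loci. ATMG00020 and RRN18 together held 89.2% to 94.6% of the mitochondrial counts of a library. RRN18 is the small-subunit ribosomal RNA. ATMG00020 has 2568 bases and no name in the tables. The annotated large-subunit ribosomal RNA, of 3169 bases in TAIR10.1, is the only annotated mitochondrial ribosomal RNA whose length matched no locus in the tables, so ATMG00020 is given by its code. All other mitochondrial loci except RRN5 took 0.0186% to 0.0297% of the counts, and for them the ranges of all 4 groups overlapped. Without ATMG00020, RRN18 and RRN5, the log2 ratio of low over normal light was 0.19 in atrx-2 and 0.12 in wild type, and that of atrx-2 over wild type was -0.07 under normal light.

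**Figure D1:**
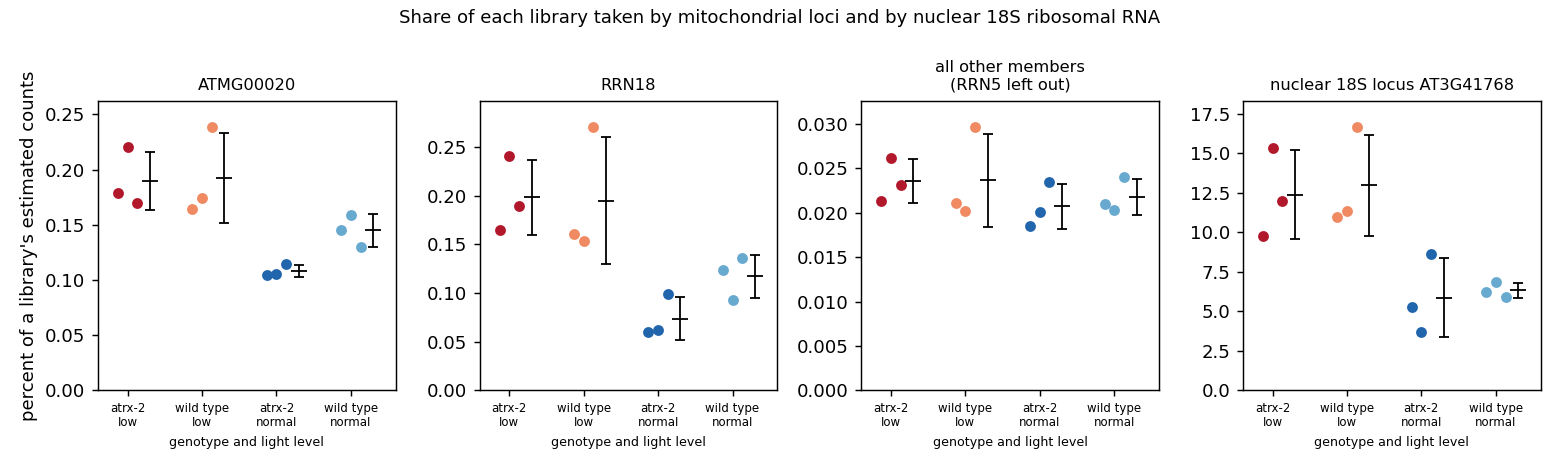
Percent of each library's estimated counts (vertical axes, starting at 0) in ATMG00020, in RRN18, in all other mitochondrial loci without RRN5, and in the nuclear 18S ribosomal RNA locus, for atrx-2 and wild type under low and normal light. Points are libraries and the mark with its bar is the mean ± SD of 3; ATMG00020, RRN18 and the nuclear 18S locus were higher in each genotype under low light, while the other mitochondrial loci lay between 0.0186% and 0.0297% in every group.

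On a scale corrected for transcript length, the highest loci of 120 bases or more were RRN18, ATMG00020 and ATMG00030, a locus of 324 bases without a name. Their means over the 12 libraries were 616, 491 and 203 TPM. RRN5, of 118 bases, had a mean of 296 TPM from 546 counts over all libraries. The 5 highest loci among the protein-coding list were ATMG01120 at 17.6 TPM, ATMG00516 at 12.4 TPM, ATP9 at 11.9 TPM, ATP1 at 11.4 TPM and RPS12 at 11.3 TPM, and the lowest that was tested was RPS4 at 0.21 TPM. This order depended on how length entered: ATMG01120 has 273 bases, and by counts per base of transcript the first 5 were ATP1, COX2, ATP9, RPL16 and NAD5C. Loci under 120 bases were poorly sampled by these libraries. The 23 such loci, 22 to 118 bases long and RRN5 among them, held 211 counts over all libraries without RRN5. TAIR10.1 annotates 22 mitochondrial transfer RNAs of 71 to 88 bases, so transfer RNAs gave no result here.

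Low light against normal light was tested within each genotype with edgeR's quasi-likelihood test, with Benjamini-Hochberg adjustment over all 20783 genes tested and an adjusted p under 0.05 as the threshold. In atrx-2, 16 of the 60 tested mitochondrial loci rose and 15 fell under low light, against a background of 33.1% of all genes called, 16.1% higher and 16.9% lower. In wild type, 14 rose and 11 fell, against a background of 34.2% called, 16.6% higher and 17.6% lower. The CPM ranges of low and normal light did not overlap for 37 of the 60 loci in atrx-2, with a background of 46% of all genes, and for 27 in wild type, with a background of 45.7%. The share of mitochondrial loci called was 51.7% in atrx-2 and 41.7% in wild type. The median log2 change of the 60 loci was 0.31 in atrx-2 and 0.27 in wild type, while that of all genes was 0.007 in atrx-2 and -0.005 in wild type. The same 11 loci rose and the same 8 fell in both genotypes, 12 were called in atrx-2 only, 6 in wild type only, and none was called in opposite directions. The 24 tested protein-coding loci with a name had 11 rises and 2 falls in atrx-2 and 7 rises and 3 falls in wild type, with median log2 changes of 1.02 and 0.69. The 33 tested loci without a name, ATMG00020 left out, had 3 rises and 12 falls in atrx-2 and 5 rises and 8 falls in wild type. These 33 include loci of the protein-coding list that could not be named, such as ATMG01120 and ATMG00520. The split is thus by name and does not separate coding from other loci.

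The rises under low light moved with the 18S share, and the light level and this share cannot be told apart because their values did not overlap. With the 18S share of each library as a covariate, none of the 60 loci was called higher in either genotype, 10 were called lower in atrx-2 and 4 in wild type, with backgrounds of 12% and 13.4%. Scaled to the summed counts of mitochondrial protein-coding genes in place of all genes, 10 rose and 22 fell in atrx-2, and 5 rose and 24 fell in wild type. The backgrounds were 33.1% and 34.3%, in which all other genes kept their scaling. The sum holds loci that were themselves tested, so a rise of the sum lowers the change of every mitochondrial locus. These counts therefore describe each locus relative to that sum only. This scaling moved the median of the 60 loci to -0.37 in atrx-2 and -0.20 in wild type. Without wild-type low-light replicate 3, 5 of the 14 rises in wild type were still called: ATP1, COX1, RPS3, ATMG00520 and ATMG01120. Of the 11 falls in wild type, 8 were still called, and RPS12, ATMG00370 and ATMG01000 were not. In atrx-2, leaving out at least 1 of the libraries ended the calls of RRN5, NAD1A, NAD5A, CCMB, ATMG00040, ATMG00690, ATMG01090, ATMG01130, ATMG01180 and ATMG01350. In wild type it ended those of RRN18, ATMG00020, NAD1A, NAD5C, NAD7, CCMB, CCMC, RPS12, ATMG00040, ATMG00200, ATMG00370, ATMG00690, ATMG01000, ATMG01020, ATMG01130, ATMG01200 and ATMG01370.

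RRN18 had 1655, 2618 and 1931 CPM (counts scaled to library size) in atrx-2 under low light, against 570, 560 and 936 CPM in atrx-2 under normal light. In wild type it had 1668, 1629 and 3155 CPM under low light, against 1203, 907 and 1258 CPM under normal light. The light groups did not overlap in either genotype, and the log2 change was 1.59 (SE 0.26, adjusted p = 0.000312) in atrx-2 and 0.94 (SE 0.26, adjusted p = 0.0115) in wild type. ATMG00020 had 1801, 2392 and 1731 CPM in atrx-2 under low light, against 989, 957 and 1079 CPM in atrx-2 under normal light. In wild type it had 1702, 1848 and 2780.4 CPM under low light, against 1410.1, 1554 and 1206 CPM under normal light. These groups did not overlap either, with log2 changes of 0.97 (SE 0.17, adjusted p = 0.000425) in atrx-2 and 0.60 (SE 0.17, adjusted p = 0.0114) in wild type. Neither rise in wild type was called without wild-type low-light replicate 3, where the log2 change was 0.56 for RRN18 and 0.36 for ATMG00020. Scaled to the mitochondrial protein-coding genes, RRN18 was still called in atrx-2 at 0.90 and was not called in wild type. ATMG00020 was then not called at 0.27 in atrx-2 and 0.03 in wild type. RRN5, the 5S ribosomal RNA of the mitochondrial ribosome, had 1.25, 1.82 and 1.47 CPM in atrx-2 under low light, against 3.20, 2.43 and 3.90 CPM in atrx-2 under normal light. It fell in atrx-2 (log2 change -1.08, SE 0.30, adjusted p = 0.0121) and was not called in wild type (-0.59, SE 0.29, adjusted p = 0.139). RRN5 is a short locus, as described above.

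Genes of complex I, which oxidises NADH at the start of the respiratory chain, moved upwards where they were called. Of 7 tested loci, 5 rose in atrx-2, where 16.1% of all genes rose, and 3 in wild type, where 16.6% did, and none fell. NAD5A and NAD5C hold different exons of the same gene and are not separate genes. With so few loci these counts are descriptions. NAD5C had 7.29, 9.92 and 7.31 CPM in atrx-2 under low light, against 1.78, 1.76 and 3.10 CPM in atrx-2 under normal light. In wild type NAD5C had 4.14, 6.26 and 9.67 CPM under low light, against 3.06, 2.17 and 3.73 CPM under normal light. The groups did not overlap, and the log2 change was 1.87 (SE 0.30, adjusted p = 0.000238) in atrx-2 and 1.11 (SE 0.29, adjusted p = 0.00916) in wild type. Without wild-type low-light replicate 3 the change in wild type was 0.77 for NAD5C, 1.30 for NAD7 and 1.21 for NAD1A, and none of these was called. NAD7 rose by 2.67 (SE 0.53, adjusted p = 0.00146) in atrx-2 and 1.82 (SE 0.51, adjusted p = 0.0122) in wild type. NAD7 summed with its nuclear copy was not called in either genotype, at 0.35 in atrx-2 and 0.21 in wild type, and with the 18S share as a covariate the change of NAD7 in wild type was -0.04 and not called. NAD5A rose in atrx-2 (2.99, SE 0.89, adjusted p = 0.0185) and was not called in wild type (2.03), and its sum with the copy rose in both, by 0.67 and 0.73. NAD9, which has no paired copy, rose in atrx-2 (1.16, adjusted p = 0.0058) and was not called in wild type (0.72, adjusted p = 0.0642). NAD1A rose by 1.85 in atrx-2 and 1.36 in wild type at levels under 1.2 CPM in every library, and its sum with the copy rose in wild type (1.33) and was not called in atrx-2 (0.43). NAD2B and NAD4 were not called in either genotype. NAD3 and NAD5B, a locus of 22 bases without a count, did not pass the filter.

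Complex III is represented by COB alone, which did not pass the filter: its counts were 30.3, 0 and 51.6 in atrx-2 under low light, 0 when rounded in all wild-type low-light libraries, and 6.57 and 9.76 in a single library of each genotype under normal light. The sum of COB and AT2G07727 had 18.5, 29.5 and 19.0 CPM in atrx-2 under low light, against 5.84, 5.64 and 9.99 CPM in atrx-2 under normal light. In wild type the sum had 15.6, 19.1 and 28.7 CPM under low light, against 10.3, 8.57 and 9.51 CPM under normal light. The light groups did not overlap, and the sum rose by 1.63 on the log2 scale in atrx-2 (SE 0.25, adjusted p = 0.000163) and by 1.14 in wild type (SE 0.24, adjusted p = 0.00237).

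The 3 core subunits of complex IV, the terminal oxidase, did not move alike. COX1 had 11.6, 13.6 and 10.3 CPM in atrx-2 under low light, against 5.28, 4.71 and 5.396 CPM in atrx-2 under normal light. In wild type COX1 had 8.05, 10.5 and 17.4 CPM under low light, against 6.67, 6.79 and 6.29 CPM under normal light. COX1 rose in both, with log2 changes of 1.20 (SE 0.21, adjusted p = 0.00062) in atrx-2 and 0.84 (SE 0.21, adjusted p = 0.00676) in wild type, and its groups did not overlap. COX2 had 8.72, 9.45 and 7.69 CPM in atrx-2 under low light, against 7.92, 7.35 and 9.24 CPM in atrx-2 under normal light. In wild type COX2 had 5.03, 7.31 and 9.67 CPM under low light, against 8.46, 7.41 and 9.27 CPM under normal light. COX2 was not called (0.07, SE 0.18 in atrx-2 and -0.22, SE 0.19 in wild type), but scaled to the mitochondrial protein-coding genes it was called lower, at -0.61 and -0.78. COX3 was not called at 0.32 in atrx-2 and 0.06 in wild type.

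Complex V, the ATP synthase, held both directions. ATP1, the alpha subunit and the most counted of the named protein-coding genes, had 24.2, 32.1 and 28.2 CPM in atrx-2 under low light, against 12.8, 12.6 and 15.0 CPM in atrx-2 under normal light. In wild type ATP1 had 18.9, 24.7 and 43.8 CPM under low light, against 16.1, 12.7 and 14.0 CPM under normal light. ATP1 rose by 1.06 in atrx-2 (SE 0.23, adjusted p = 0.00221) and by 1.01 in wild type (SE 0.23, adjusted p = 0.00323), without overlap of the light groups. ATP9 had 1.94, 1.62 and 1.99 CPM in atrx-2 under low light, against 9.09, 7.77 and 9.59 CPM in atrx-2 under normal light. In wild type ATP9 had 3.75, 2.50 and 2.80 CPM under low light, against 4.23, 7.91 and 7.49 CPM under normal light. Every low-light library lay below every normal-light library of its genotype, with log2 changes of -2.24 (SE 0.23, adjusted p = 4.75e-06) in atrx-2 and -1.10 (SE 0.23, adjusted p = 0.00172) in wild type. ATP9 was called lower in both genotypes in all 20 alternative settings. Summed with AT2G07671, which held most of the summed counts, ATP9 fell by 0.61 in atrx-2 (adjusted p = 0.00664) and by 0.51 in wild type (adjusted p = 0.0178). ATP4 rose in atrx-2 (1.14, adjusted p = 0.00417) and was not called in wild type (0.43). ATP8 and ATP6-1 were not called alone, and the sum of ATP6-1 with its copy rose in both, by 1.16 and 1.02.

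**Figure D2:**
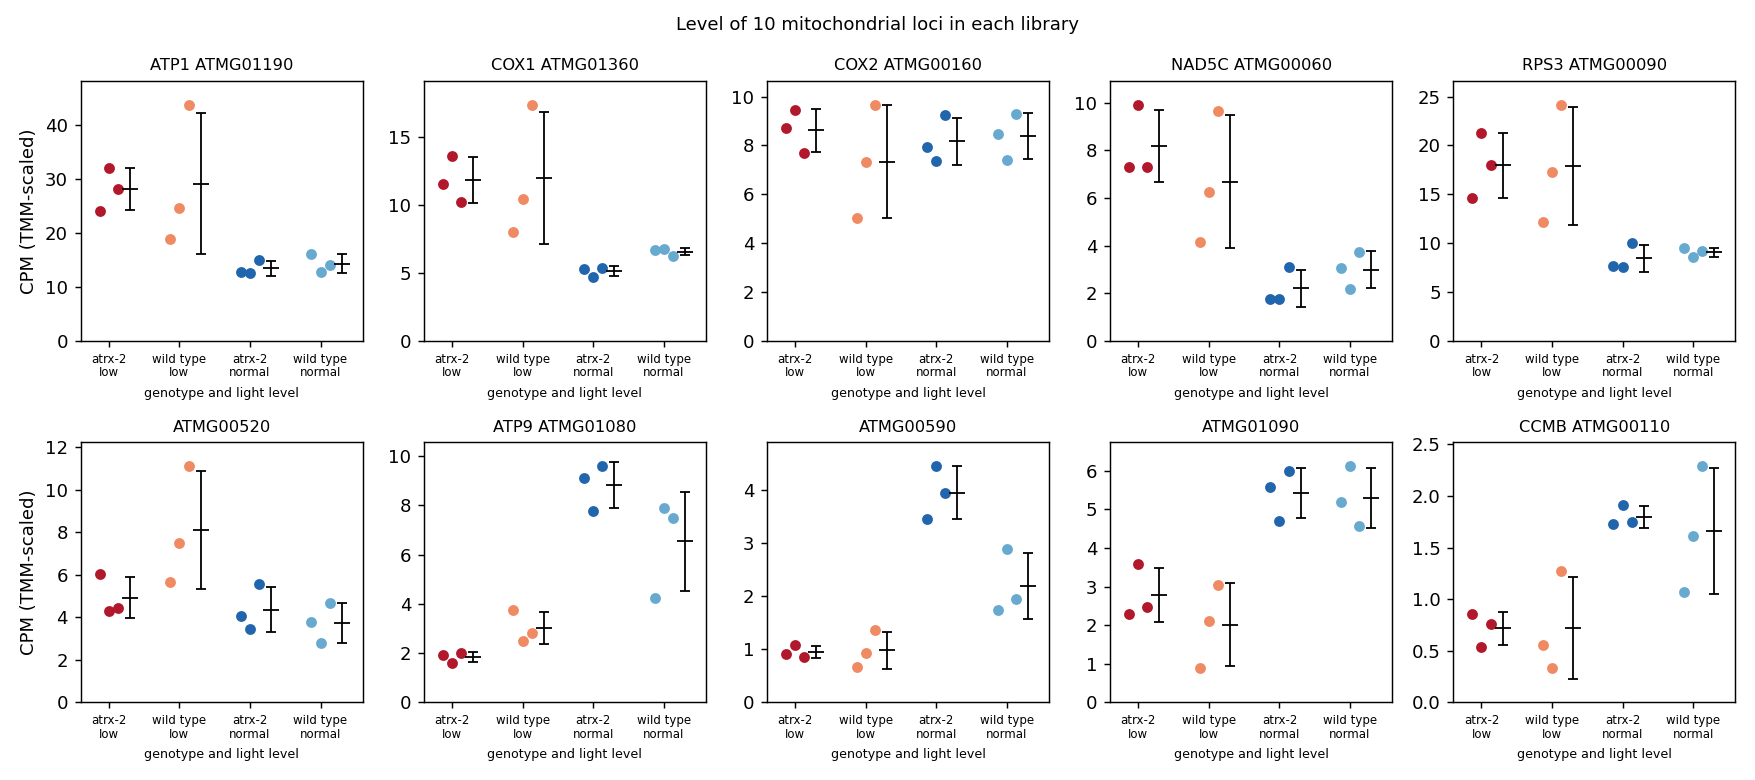
CPM, scaled by edgeR's TMM method, of 10 mitochondrial loci in every library of atrx-2 and wild type under low and normal light; points are libraries and the mark with its bar is the mean ± SD of 3. ATP1, COX1, NAD5C and RPS3 had higher values under low light in both genotypes and ATP9, ATMG00590 and ATMG01090 had lower ones, while the COX2 ranges overlapped.

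Cytochrome c maturation genes, whose products attach haem to cytochrome c, also held both directions. CCMB had 0.855, 0.540 and 0.760 CPM in atrx-2 under low light, against 1.73, 1.92 and 1.75 CPM in atrx-2 under normal light. In wild type CCMB had 0.559, 0.330 and 1.27 CPM under low light, against 1.07, 1.61 and 2.29 CPM under normal light. CCMB fell by 1.30 in atrx-2 (SE 0.38, adjusted p = 0.0156), without overlap, and by 1.29 in wild type (SE 0.40, adjusted p = 0.0203), where the groups overlapped. CCMC rose by 2.17 in atrx-2 and by 1.34 in wild type, where it was not called without low-light replicate 3 (1.24), at levels under 0.9 CPM. However, the sum of CCMC with its nuclear copies AT2G07681 and AT2G07771 was not called, at 0.49 and 0.22. CCMFN2 was not called, and CCMFC and CCMFN1 did not pass the filter alone, with 29.1 and 67.1 counts in all. The sum of CCMFC and its copies AT2G07723 and AT2G07815 fell by 0.43 in both genotypes. That of CCMFN1 and its copy was not called, at -0.22 in atrx-2 and -0.06 in wild type.

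Of 6 tested genes for proteins of the mitochondrial ribosome, 2 rose in atrx-2, and 1 rose and 1 fell in wild type, a share called close to the 33.1% and 34.2% of all genes. RPS3 had 14.6, 21.3 and 17.95 CPM in atrx-2 under low light, against 7.72, 7.61 and 10.0 CPM in atrx-2 under normal light. In wild type RPS3 had 12.2, 17.3 and 24.2 CPM under low light, against 9.47, 8.57 and 9.16 CPM under normal light. It rose by 1.08 in atrx-2 (SE 0.20, adjusted p = 0.000897) and by 0.96 in wild type (SE 0.20, adjusted p = 0.00224), and the light groups did not overlap. RPL2 rose in atrx-2 (1.42, SE 0.28, adjusted p = 0.00145) and was not called in wild type (0.67), and its sum with the copy rose by 0.48 in atrx-2. RPS12 fell in wild type (-0.81, SE 0.30, adjusted p = 0.0486), where 1.68 to 3.23 CPM under low light overlapped 2.45 to 6.21 CPM under normal light. RPS12 was not called in atrx-2 (-0.11), and its counts were divided almost evenly with its nuclear copy. RPL5 was not called alone, at 1.15 in atrx-2 and -1.64 in wild type, while its sum with the copy rose in both, by 1.15 and 1.00. RPL16 and RPS4 were not called, and RPS7 did not pass the filter.

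**Figure D3:**
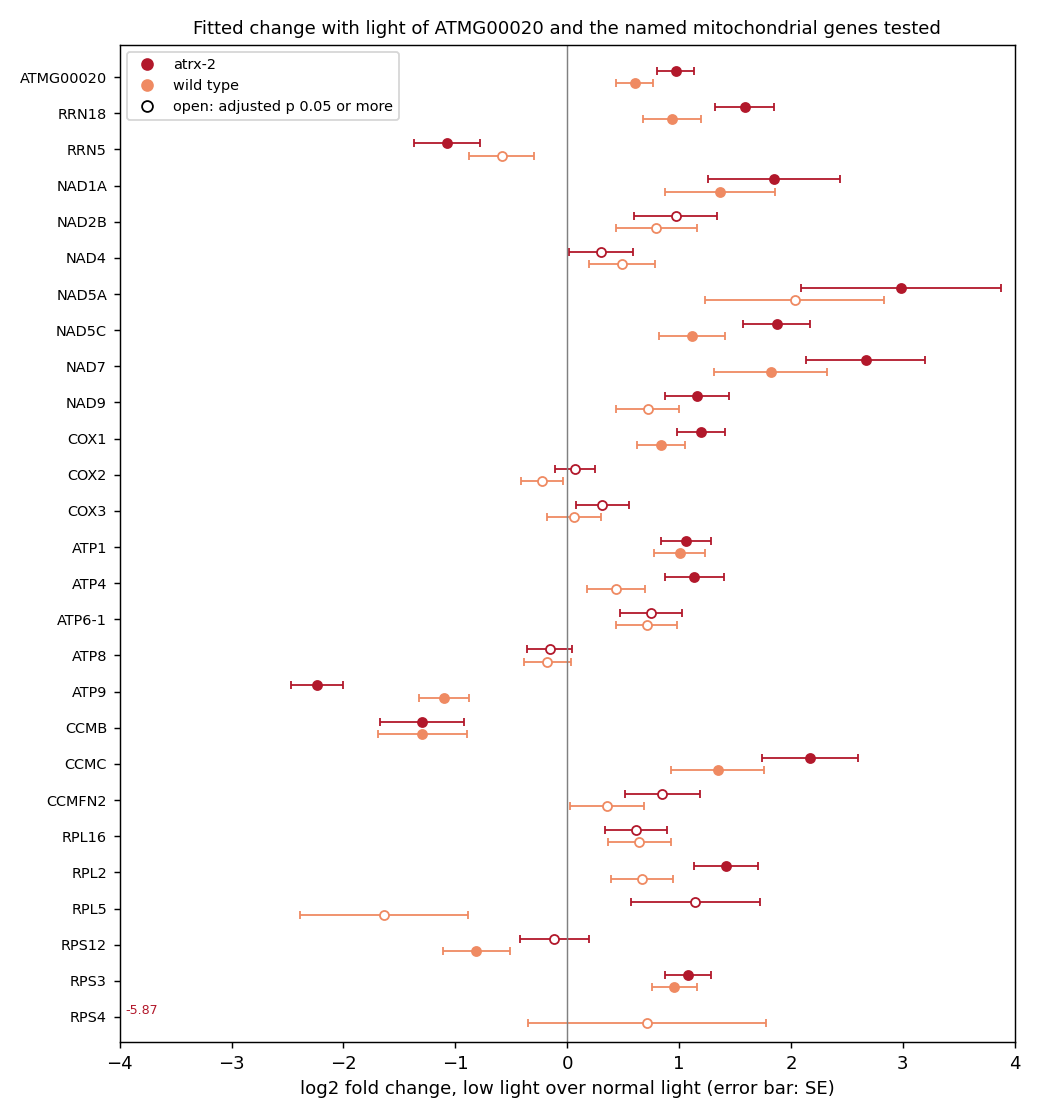
Log2 change of low over normal light with its standard error for ATMG00020 and the 26 named loci tested, atrx-2 above wild type for each locus; filled symbols passed an adjusted p under 0.05. RRN18, ATP1, COX1, NAD5C, NAD7 and RPS3 lay to the right of 0 in both genotypes and ATP9 and CCMB to the left, and RPS4 in atrx-2, which was not called, lies off the scale at -5.87.

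Among the loci without a name, ATMG00590, which the reference annotates as a cytochrome b/b6 protein, had 0.912, 1.08 and 0.855 CPM in atrx-2 under low light, against 3.45, 4.45 and 3.95 CPM in atrx-2 under normal light. In wild type ATMG00590 had 0.671, 0.923 and 1.36 CPM under low light, against 1.73, 2.90 and 1.94 CPM under normal light. The light groups did not overlap, and the log2 change was -2.06 (SE 0.26, adjusted p = 3.16e-05) in atrx-2 and -1.19 (SE 0.28, adjusted p = 0.00495) in wild type, called in all 19 alternative settings that tested it. ATMG01090, annotated as mitochondrial ATP synthase 9, had 2.28, 3.58 and 2.47 CPM in atrx-2 under low light, against 5.59, 4.71 and 5.995 CPM in atrx-2 under normal light. In wild type ATMG01090 had 0.895, 2.11 and 3.05 CPM under low light, against 5.20, 6.12 and 4.58 CPM under normal light. It fell by 0.98 in atrx-2 (SE 0.28, adjusted p = 0.013) and by 1.45 in wild type (SE 0.30, adjusted p = 0.00177), again without overlap. ATMG01120 and ATMG01130 rose in both genotypes, by 1.095 and 1.23 in atrx-2 and by 1.37 and 1.21 in wild type, where ATMG01130 was not called without low-light replicate 3 (0.40). ATMG00520 rose in wild type (1.07, SE 0.26, adjusted p = 0.00471) and was not called in atrx-2 (0.17). ATMG00040 fell by 1.24 in atrx-2 and by 1.39 in wild type. ATMG00810 fell by 2.09 in atrx-2 (SE 0.41, adjusted p = 0.00121) and was not called in wild type (-0.68). ATMG00170 and ATMG00620 had equal counts in every library, so their fall in atrx-2 (-1.60, SE 0.36, adjusted p = 0.00332) is a single measurement. ATMG00370, annotated as a Ycf1 protein, had 0 counts when rounded in wild type under low light and 103 counts in wild type under normal light, none of them in replicate 2, so it was at least 24.3-fold lower at a floor of 3 counts over the group. Summed with its copy, ATMG00370 fell by 1.28 in atrx-2 (adjusted p = 0.000524) and by 1.84 in wild type (adjusted p = 3.76e-05).

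Adding nuclear copies to their mitochondrial gene changed several of these calls, with a background of 33.1% called in atrx-2 and 34.3% in wild type. Of 28 loci with a paired copy that were tested both ways in atrx-2, 9 were called in the same direction alone and as a sum, 3 alone only and 5 as a sum only. In wild type 8 were called both ways, 2 alone only and 5 as a sum only. The sign of the log2 change differed between the locus and the sum for 2 loci in each genotype, and no locus was called in opposite directions. The 32 tested loci to which no copy was paired had 10 rises and 9 falls in atrx-2 and 9 rises and 6 falls in wild type. Loci without a name could be paired by annotation alone, so some of the 32 may have a copy. ATMG00170, whose fall in atrx-2 is counted among them, had counts equal to those of ATMG00620, which was paired with AT2G07722.

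**Figure D4:**
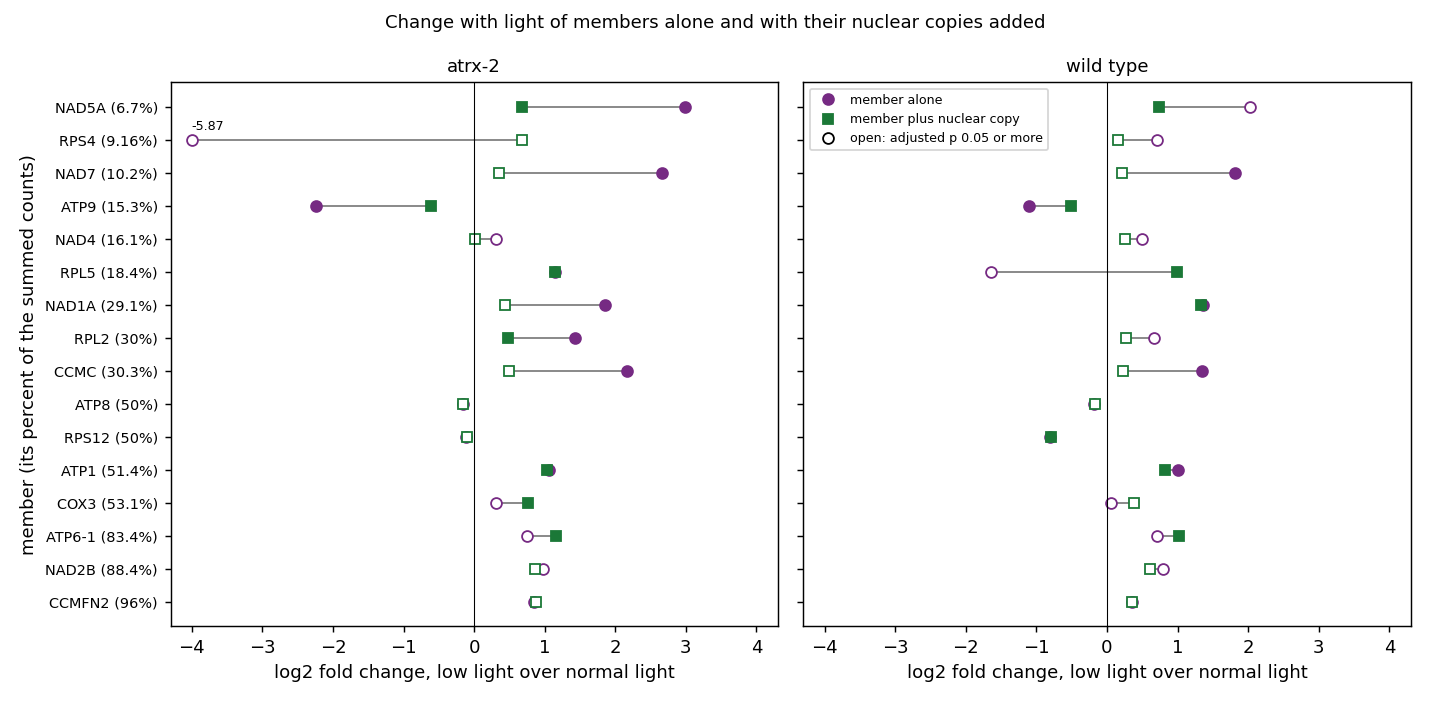
Log2 change of low over normal light (horizontal axis) of 16 named mitochondrial genes, alone (circles) and summed with the nuclear copy (squares), in atrx-2 (left) and wild type (right); filled symbols passed an adjusted p under 0.05, labels give the percent of the summed counts assigned to the mitochondrial gene, and RPS4 alone in atrx-2 lies off the scale at -5.87. NAD7, at 10.2%, had changes of 2.67 alone and 0.35 as a sum in atrx-2, while ATP1 had 1.06 and 1.03.

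The atrx-2 mutant was set against wild type at each light level. No mitochondrial locus was called by edgeR under low light, where 0.0722% of all genes were called, or under normal light, where 0.0674% were, or in the average over light, with 0.308% called. At an unadjusted p under 0.05 the 60 loci gave 5 under low light, 7 under normal light and 2 in the average, and DESeq2 called 0 in each, with 5, 4 and 1 at an unadjusted p under 0.05. The CPM ranges of atrx-2 and wild type did not overlap for 4 of the 60 loci under low light, with a background of 12.9% of all genes, and for 11 under normal light, with a background of 12.2%. Under low light the smallest p-values belonged to RPL5, ATMG00520 and ATP9. RPL5 had 2.17, 2.23 and 0.902 CPM in atrx-2, against 0, 0.395 and 0.679 CPM in wild type (log2 2.41, SE 0.71, adjusted p = 0.486). However, RPL5 held 18.4% of the summed counts of RPL5 and its nuclear copy, and this sum differed by -0.04 (SE 0.29). ATMG00520 differed by -0.69 (SE 0.25, adjusted p = 0.616) and ATP9 by -0.71 (SE 0.26, adjusted p = 0.633), with -0.15 (SE 0.16) for the sum of ATP9 and its copy. Under normal light they belonged to ATMG00590, ATMG00020 and RRN18. ATMG00590 had 3.45, 4.45 and 3.95 CPM in atrx-2, against 1.73, 2.90 and 1.94 CPM in wild type (log2 0.86, SE 0.23, adjusted p = 0.326). ATMG00020 differed by -0.46 (SE 0.17, adjusted p = 0.483) and RRN18 by -0.71 (SE 0.26, adjusted p = 0.497), with 2 atrx-2 libraries of RRN18 below and 1 inside the wild-type range. In the average over light the smallest were ATMG00030 (-0.50, SE 0.20, adjusted p = 0.406), ATMG00020 (-0.28, adjusted p = 0.437) and ATMG00590 (0.42, adjusted p = 0.492).

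Whether the response to low light differed between atrx-2 and wild type was tested as an interaction. No mitochondrial locus was called by edgeR, with 0.00481% of all genes called, and 9 of the 60 had an unadjusted p under 0.05. DESeq2 called 0, with 5 at an unadjusted p under 0.05. ATP9 had an interaction of -1.14 (SE 0.33, adjusted p = 0.978), and its sum with the nuclear copy one of -0.10 (SE 0.21). RPL5 had an interaction of 2.78 (SE 0.95, adjusted p = 0.978), and its sum one of 0.15 (SE 0.43). ATMG00370, at 0 in several libraries, had the smallest unadjusted p (0.00216, adjusted p = 0.978), and its sum an interaction of 0.57 (SE 0.33). Calls that were made in one genotype only, such as NAD9, ATP4 and ATMG00520, are thus not shown to differ between the genotypes.

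The nuclear genes of mitochondrial respiration and gene expression were read from lists of 50 genes, of which 45 were tested. In atrx-2, 2 rose and 5 fell under low light, and in wild type 5 rose and 6 fell, so that a smaller share was called than the 33.1% and 34.2% of all genes, and 0 were called between atrx-2 and wild type or in the interaction. RPOTM, the mitochondrial RNA polymerase, averaged 18.1 ± 1.04 CPM in atrx-2 under low light and 27.1 ± 3.08 CPM in atrx-2 under normal light. In wild type RPOTM averaged 15.5 ± 0.561 CPM under low light and 24.2 ± 1.95 CPM under normal light (SD, n = 3 each). It fell by 0.58 in atrx-2 (SE 0.09, adjusted p = 0.00027) and by 0.64 in wild type (SE 0.10, adjusted p = 0.000152), and the plastid polymerase RPOTP fell by 0.57 and 0.62. Of the 3 organelle RNA polymerase genes tested, the remaining gene was not called in either genotype. NDA1, an alternative NADH dehydrogenase of the inner mitochondrial membrane, averaged 83.9 ± 3.29 CPM in atrx-2 under low light and 219.7 ± 10.9 CPM in atrx-2 under normal light. In wild type NDA1 averaged 92.5 ± 2.80 CPM under low light and 224 ± 26.0 CPM under normal light (SD, n = 3 each). NDA1 fell by 1.39 in atrx-2 (SE 0.09, adjusted p = 3.94e-08) and by 1.28 in wild type (SE 0.09, adjusted p = 7.77e-08). The alternative oxidase AOX1C fell by 1.99 and 1.79 at levels under 1 CPM on average, and cytochrome c CYTC-2 fell by 0.75 and 0.67. COX5b-1, a nuclear subunit of complex IV, rose by 0.26 in atrx-2 and 0.29 in wild type. Called in wild type alone were the rises of NDA2 (0.47), NDB1 (0.33), RECA3 (0.32), which acts in mitochondrial recombination, and AT5G08680, an ATP synthase beta subunit (0.19), and the fall of GAMMA CA1 of complex I (-0.29). SDH1-1 of succinate dehydrogenase was called in atrx-2 alone (0.19).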

How the data were processed

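RNA was prepared as total RNA with the RNeasy plus mini kit and NEBNext Ultra II RNA libraries, per the labels' protocols; whether RNA was selected by poly(A) and whether libraries kept strand is not stated there. The authors deposited kallisto tables, made with kallisto 0.42 on TAIR10 per the submitters' processing notes, with each locus's estimated counts and its TPM, which is scaled to length and library; 12.3% to 13.9% of the 33602 loci in a library had estimated counts that were not whole at a tolerance of 1e-06. These divide reads shared by near-identical loci by a model, so a locus can receive 0 while its copy receives all. Estimated counts were rounded and tested with edgeR 4.0.16 in R 4.3.3 (filterByExpr, TMM, quasi-likelihood test, 4 groups in a joint fit, two-sided, Benjamini-Hochberg over 20783 genes). CPM uses TMM-scaled library sizes. Replicates differed beyond counting noise and were kept as 3 per group. Loci were named only where a note in TAIR10.1 or a unique length match allowed it, 32 of 146; sequences and coordinates are RefSeq's TAIR10.1. Loci entered by code alone, but the decision to describe this set, the lists and the tests were chosen with earlier results of these data known. Named in full in each comparison were the 5 largest rises and falls called that reached a mean of 1 CPM in either group. Where none was called, the loci with the 3 smallest p-values were named. The ribosomal RNA list and the named loci of the protein-coding list were always accounted for. Loci of the protein-coding list without a name were given only where these rules or the order of levels picked them. Alternatives were DESeq2 1.42.0, no count filter, a 5 CPM filter in 3 libraries, other scalings, the 18S share as a covariate, copies added, a replicate block and each library left out. The code was tested on simulated data.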

Additional observations from a re-analysis of the deposited data

How the results depend on the processing

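The counts of called loci under low light were 31 in atrx-2 and 25 in wild type. With a filter of 5 CPM, which left 19 loci, they were 12 and 12, and with the 18S share as a covariate 10 and 4; the first setting tests fewer loci. Leaving out each library in turn gave 28 to 36 in atrx-2 and 14 to 25 in wild type, with 14 when replicate 3 of wild type under low light was left out and 16 when replicate 3 of wild type under normal light was. Between atrx-2 and wild type, 0 loci were called in nearly all settings: under normal light the range was 0 to 1, where NAD3 was called without atrx-2 normal-light replicate 3. The average, the low-light comparison and the interaction gave 0 in every setting. DESeq2 gave 17 rises and 15 falls in atrx-2 and 14 and 8 in wild type. The log2 ratio of the mitochondrial share, low over normal light, was 1.02 in atrx-2 and 0.53 in wild type. It was 0.185 and 0.118 without ATMG00020, RRN18 and RRN5, and 0.347 and 0.06 as a share of TPM with RRN5 included. With libraries left out it lay between 0.879 and 1.147 in atrx-2 and between 0.288 and 0.643 in wild type. For atrx-2 over wild type under normal light it was -0.48, with -0.073 and -0.256 in those 2 settings and -0.614 to -0.417 with libraries left out; under low light libraries left out gave -0.138 to 0.245. The cause was not tested. Of the 5 highest protein-coding loci by TPM, 2 were also highest by counts per length. With a replicate block the counts were 33 in atrx-2 (17 higher, 16 lower), 22 in wild type (13 higher, 9 lower) and 0 in the other comparisons. Over all genes, the block changed the number called from 6870 to 7234 in atrx-2 and from 7113 to 7540 in wild type. Libraries of equal number were weakly correlated at most (r of -0.147 to 0.174, 5 of 18 pairs over 0.1). Of the 12 libraries, 7 were closest to their own number. These values do not decide whether the numbers pair the libraries. Most loci under 120 bases had too few counts to be tested, RRN5 excepted.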

Other observations

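Some mitochondrial loci with an identical or nearly identical nuclear copy were assigned counts in a few libraries and 0 in the others of the same group. NAD3, a complex I subunit, received 53.9 and 42.0 counts in replicates 1 and 2 of atrx-2 under normal light and, when rounded, 0 in the other 10 libraries. RPS4 had 0 CPM in all 3 atrx-2 low-light libraries, against 0.508, 0.518 and 0.150 CPM in atrx-2 under normal light, and its sum with the copy had 2.39, 4.39 and 4.23 CPM against 2.13, 2.59 and 2.15 CPM. ATMG00370 had 0, 0.540 and 2.85 CPM in atrx-2 under low light and 0.203, 0 and 0.05 CPM in atrx-2 under normal light. For these loci the values given are those of the deposited model's division of reads, and their agreement with the number of molecules was not tested. There were 5 pairs of mitochondrial loci with equal counts in every library, of which ATMG00170 and ATMG00620 were tested.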
